A study of Mus musculus with 6 samples.

Results

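The Nr4a family holds 3 genes, Nr4a1, Nr4a2 and Nr4a3, which were taken by symbol from a table of 49315 mouse genes counted in regulatory T cells (Tregs). All 3 were in the table, and all 3 passed the filter on low counts that left 13572 genes for testing. They were taken by name, with earlier results of these data known. The cells were collected from skin and skin-draining lymph node (SDLN) of 9-day-old Foxp3-GFP mice, in which a green fluorescent protein reports Foxp3, the transcription factor that defines Tregs. Both groups share that genotype, and neither was treated. The study's methods describe 3 biological replicates pooled into each sample, magnetic selection for CD45+ cells and flow sorting of viable cells positive for CD45, CD4 and Foxp3-EGFP. Skin was digested with enzymes while lymph nodes were mashed, so tissue and preparation cannot be told apart. There were 3 skin Treg and 3 SDLN Treg libraries, each named here by tissue and a letter from A to C.

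The Nr4a proteins are nuclear receptors called orphans because no physiological ligand is established for them. They bind DNA at a short element as monomers, and Nr4a1 and Nr4a2 can also pair with retinoid X receptors (RXRs). Their genes are immediate-early genes, transcribed within minutes of a stimulus without new protein synthesis. In T cells, signalling through the T cell receptor (TCR) induces them, and Nr4a1, also known as Nur77, is widely used as a reporter of that signal. In Tregs the family is known to maintain Foxp3 expression and Treg identity.

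Nr4a1 (ENSMUSG00000023034) lies at chr15:101254269-101274795 on the plus strand of GRCm38, Nr4a2 (ENSMUSG00000026826) at chr2:57106830-57124003 on the minus strand and Nr4a3 (ENSMUSG00000028341) at chr4:48045153-48086447 on the plus strand. The merged exons of Nr4a1 span 3509 bases, those of Nr4a2 4059 bases and those of Nr4a3 5987 bases. The promoters are shown because the genes are known targets of the same stimuli, and a link between their motifs and the counts was not tested. Windows of 300 bases (250 before and 50 after a RefSeq start, GRCm38.p6) were searched, and the stretches before the start and outside annotated exons are printed. They are chr15:101266596-101266845 for Nr4a1, chr2:57124004-57124253 for Nr4a2 (minus strand) and chr4:48045055-48045152 for Nr4a3. The Nr4a1 start lies inside the gene, downstream of 2 annotated upstream exons. The Nr4a3 stretch stops at the first GENCODE exon, 152 bases before the RefSeq start. Capitals mark half-sites of the cAMP response element (CRE, the site bound by the CREB family), TGACG or, on the other strand, CGTCA.

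Nr4a1: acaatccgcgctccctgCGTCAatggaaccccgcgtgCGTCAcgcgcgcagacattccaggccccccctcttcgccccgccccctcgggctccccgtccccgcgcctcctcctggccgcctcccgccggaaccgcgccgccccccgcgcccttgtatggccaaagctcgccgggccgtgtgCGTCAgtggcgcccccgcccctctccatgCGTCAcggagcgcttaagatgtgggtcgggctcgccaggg
Nr4a2: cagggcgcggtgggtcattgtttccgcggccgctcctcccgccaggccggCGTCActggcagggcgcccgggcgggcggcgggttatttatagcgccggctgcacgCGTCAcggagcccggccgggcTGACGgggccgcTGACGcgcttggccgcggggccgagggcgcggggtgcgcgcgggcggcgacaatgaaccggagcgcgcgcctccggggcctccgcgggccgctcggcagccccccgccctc
Nr4a3: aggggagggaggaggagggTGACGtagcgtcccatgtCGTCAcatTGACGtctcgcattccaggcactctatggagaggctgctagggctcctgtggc

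Each of the 3 windows held 4 CRE half-sites, of which 3 fall in the printed part for Nr4a3. Among 32851 promoter windows of the same length (27025 genes), 20.8% held at least 1 half-site and 0.231% held 4 or more. The windows of the family are rich in G and C, with 72.3% in Nr4a1, 81.7% in Nr4a2 and 64.7% in Nr4a3, and among the 6218 windows with at least the Nr4a3 content 0.563% held 4 or more. In Nr4a1 all 4 lay on the opposite strand, while in Nr4a2 and Nr4a3 both strands held some. No window of the family held the full element TGACGTCA (1.79% of all windows), the AP-1 site TGANTCA (7.81%) or the NFAT core GGAAAA (23.4%). Nor did any hold the Nr4a monomer site AAAGGTCA (1.51%) or a CArG box (1.63%). The narrow form of the MEF2 site that was searched (0.557%) had no match in the family either. A looser form was not searched, and the printed Nr4a2 stretch holds a run that the looser MEF2 consensus matches. The absence of a MEF2 site is therefore not shown for Nr4a2. The GC box GGGCGG occurred 3 times in Nr4a1, 5 times in Nr4a2 and 1 time in Nr4a3 (35.7% of all windows held 1 or more). Motifs were searched on both strands, a full element counts as 2 half-sites, and a match is a run of letters rather than a bound site.

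**Figure D1:**
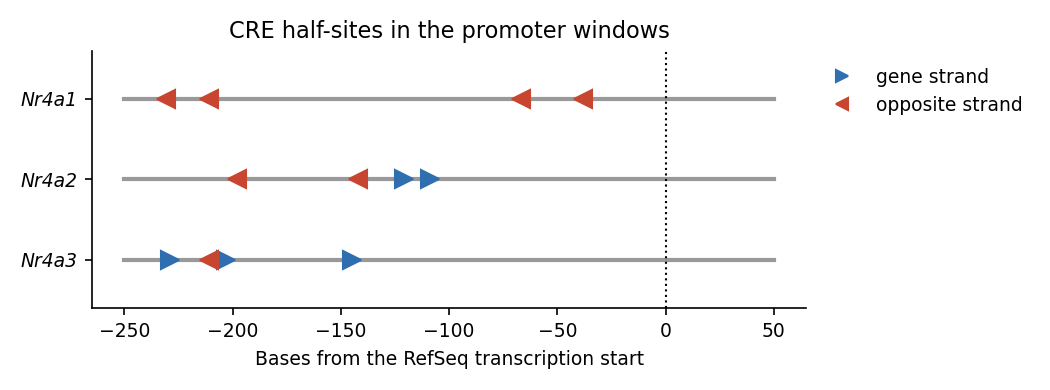
CRE half-sites in the 300-base promoter windows of Nr4a1, Nr4a2 and Nr4a3, by distance in bases from the RefSeq start (dotted line). Arrowheads point right for the gene's strand and left for the opposite strand, and each gene has 4 half-sites, all upstream of the start.

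Library depth and content differed between the tissues in ways that touch every result. Total counts ranged from 47243498 to 116158706 in SDLN Tregs and from 3748669 to 11741784 in skin Tregs. The value of 3 counts, taken as the floor below which a gene is not distinguished from 0, was 0.0258 to 0.0635 CPM (counts-per-million relative to the total of a library) for SDLN Tregs and 0.255 to 0.800 CPM in skin Tregs. Foxp3 had 12208, 10133 and 1788 counts in SDLN Tregs A to C but 0, 330 and 1 in skin Tregs A to C, and Cd4 had 0, 1861 and 2 in the skin libraries. The libraries labelled skin Tregs A and C therefore lack both genes of the sort at their depth. Ptprc, which encodes CD45, was present in all 6 (1110 to 2816 CPM in skin and 1623 to 2820 CPM in SDLN). Of 19 macrophage and dendritic cell markers, 12 lay higher in every skin library than in every SDLN library (2.39% of all genes tested), and 13 of the 15 tested were called higher (1.04% of all genes). Their summed level was 34429 to 60197 CPM in skin and 439 to 774 CPM in SDLN, with Itgam and Cd207 at 0 in all skin libraries. The 12 T cell markers summed to 4725 to 6844 CPM in skin and 9863 to 11988 CPM in SDLN. The part of other cells in the Nr4a values was not tested, and in bulk libraries fewer cells of a type and less RNA per cell cannot be told apart.

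Nr4a2 rose in skin Tregs. Its counts were 658, 614 and 126 in SDLN Tregs A to C and 1210, 6094 and 2113 in skin Tregs A to C. As CPM these were 5.66, 8.43 and 2.67 in the lymph node and 323, 519 and 234 in the skin. Every skin library lay far above every SDLN library, and skin Tregs B was the highest. Skin Tregs averaged 359 ± 146 CPM against 5.59 ± 2.88 CPM for SDLN Tregs (n = 3 libraries each, SD), a ratio of 64.2. The log2 fold change, skin over SDLN, was 6.01 (SE 1.03) with an edgeR adjusted p of 0.00495. Among all genes tested, 1.04% were called higher in skin at an adjusted p of 0.05 and 45.3% lower. Nr4a2 was called higher in all 16 other settings of the fit (scaling, filter, tool or 1 library left out), with adjusted p between 4.52e-17 and 0.0379. It was not called in an edgeR fit, added after seeing the data, that took the column letter as a replicate block (6.04, SE 3.33, adjusted p = 0.147), and no source says that the letters pair libraries. Leaving out 1 library at a time gave log2 fold changes between 5.56 and 6.38, and without skin Tregs A the value was 6.04 (edgeR adjusted p = 0.00621).

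Nr4a1 was the most abundant member in both tissues. In SDLN Tregs A to C it had 37995, 23482 and 15820 counts, or 327, 323 and 335 CPM, the highest only 1.04 times the lowest. In skin Tregs A to C it had 1978, 35704 and 11192 counts, or 528, 3041 and 1239 CPM. All skin libraries again lay above all SDLN libraries, but they spread widely, with the highest 5.76 times the lowest. Skin Tregs averaged 1602 ± 1295 CPM against 328 ± 6.22 CPM for SDLN Tregs (n = 3 libraries each, SD), a ratio of 4.88. Its log2 fold change of 2.37 (SE 0.774) was not called, since the edgeR adjusted p of 0.0514 fell just outside the threshold of 0.05 that defines a call. Both Nr4a1 and Nr4a2 had no overlap between tissues, where 2.39% of all genes tested had every skin library above every SDLN library. Nr4a1 was called higher in 5 of the 16 other settings. These were DESeq2 (log2 fold change 2.38, adjusted p = 0.000827, where 2.98% of all genes were called higher), the edgeR fit without skin Tregs A (2.68, adjusted p = 0.00673, 2.04% of genes), DESeq2 size factors in edgeR (1.13% of genes), library size only (1.08%) and limma voom (0.936%). Without skin Tregs B it was 1.54, with an edgeR adjusted p of 0.151. The fit with the column letter as a replicate block also called it (1.92, SE 0.555, edgeR adjusted p = 0.00564, 0.449% of genes called higher). The call thus rests on the choice of setting, while the direction was the same in every one.

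Nr4a3, the third member, showed no shared direction. Its counts were 1088, 561 and 441 in SDLN Tregs A to C and 11, 509 and 2 in skin Tregs A to C. These are 9.37, 7.71 and 9.33 CPM in the lymph node against 2.93, 43.3 and 0.221 CPM in the skin. Skin Tregs B stood above all SDLN libraries and skin Tregs A and C stood below them. The exact 95% binomial (Clopper-Pearson) interval was 1.46 to 5.25 CPM in skin Tregs A and 0.0268 to 0.800 CPM in skin Tregs C, and both upper bounds lie below the lowest SDLN level. Such intervals cover counting error only. Skin Tregs averaged 15.5 ± 24.2 CPM against 8.80 ± 0.950 CPM for SDLN Tregs (n = 3 libraries each, SD), and the log2 fold change of 0.84 (SE 1.61) was not called (edgeR adjusted p = 0.84). Without skin Tregs B the value turned to -2.99, which was called lower (edgeR adjusted p = 0.0416, where 48.9% of genes tested were called lower), and limma voom gave -2.20 (adjusted p = 0.232).

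**Figure D2:**
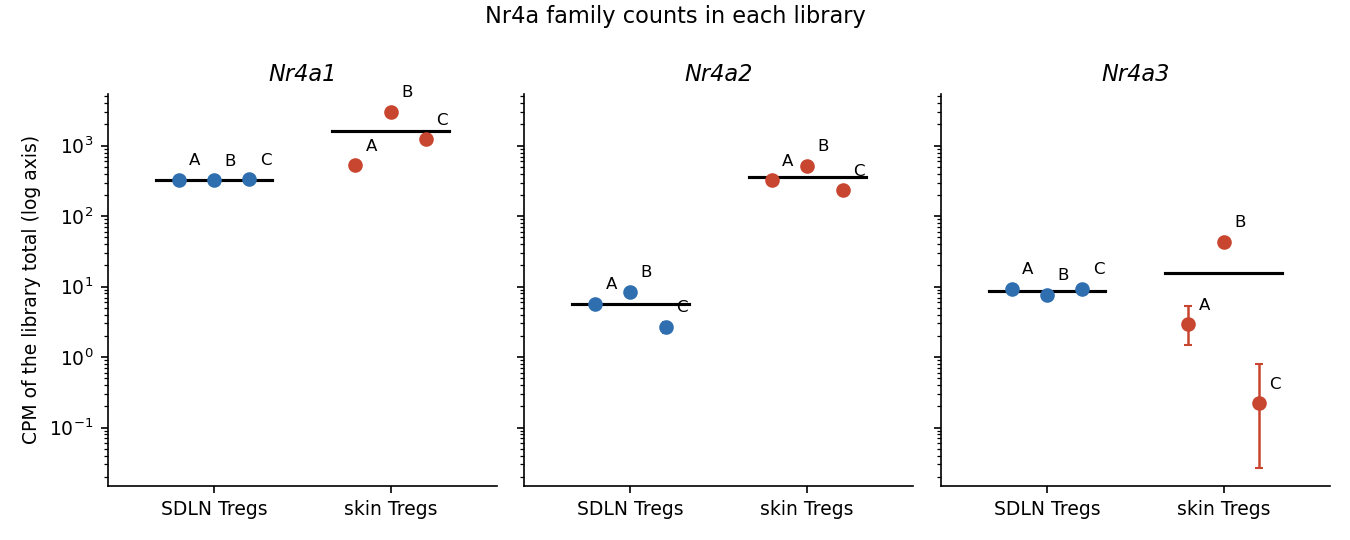
CPM of Nr4a1, Nr4a2 and Nr4a3 in the 3 SDLN Treg (blue) and 3 skin Treg (red) libraries on a log axis, with exact 95% binomial (Clopper-Pearson) intervals and the group mean as a black line. Nr4a1 and Nr4a2 are higher in every skin library, while Nr4a3 is above the SDLN range in skin Tregs B and below it in skin Tregs A and C.

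**Figure D3:**
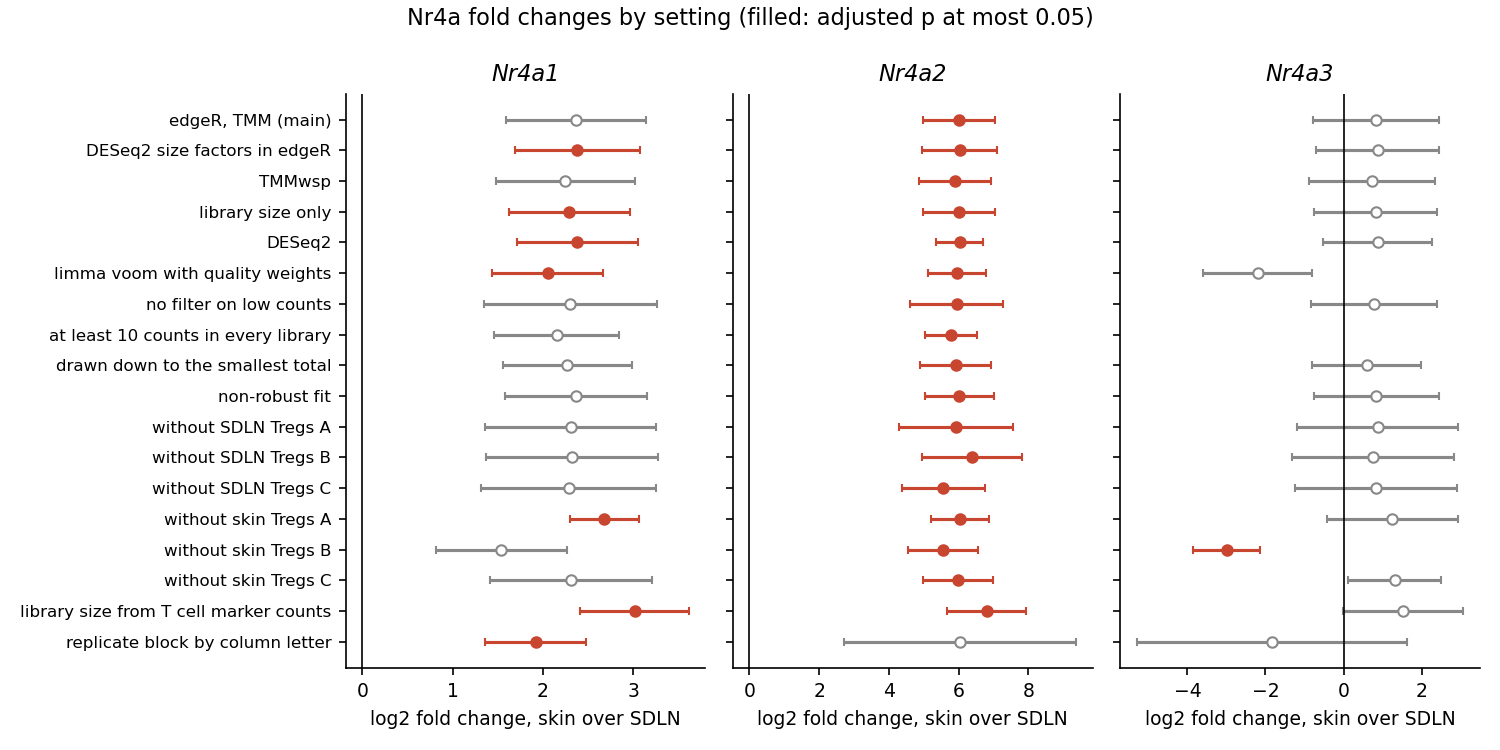
Log2 fold changes of the members, skin over SDLN, with SE, under the main fit and the alternatives, filled where the adjusted p was at most 0.05. Nr4a2 is called in each but the block by column letter, Nr4a1 is positive in each but called in some, and Nr4a3 changes sign. The upper quartile alternative is not drawn. It shifted the median log2 fold change of genes over the floor in all libraries by 6.54. Nr4a3 was not tested under the minimum of 10 counts.

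Skin Tregs B is the 1 skin library in which Foxp3 and Cd4 were over the floor of 3 counts, and it was the highest for all 3 members. It was also the deepest skin library, and its T cell markers summed to 6844 CPM, near the 6748 CPM of skin Tregs C. Its macrophage and dendritic cell markers summed to 38180 CPM, beside 60197 CPM in skin Tregs A and 34429 CPM in skin Tregs C. Its level was 3041 CPM for Nr4a1 against 323 to 335 CPM in SDLN Tregs, 519 CPM for Nr4a2 against 2.67 to 8.43 CPM, and 43.3 CPM for Nr4a3 against 7.71 to 9.37 CPM. With 1 library these are values without a test. Set beside the T cell markers of the same library, Nr4a1 counts were 3.06%, 3.27% and 2.79% of the summed marker counts in SDLN Tregs A to C and 11.2%, 44.4% and 18.4% in skin Tregs A to C. Nr4a2 counts were 0.0222% to 0.0855% of that sum in SDLN and 3.47% to 7.58% in skin. For Nr4a3 the share was 0.0779% to 0.0876% in SDLN and 0.0621%, 0.633% and 0.0033% in skin Tregs A to C. Set beside the macrophage and dendritic cell markers, the order was the other way for Nr4a1, at 43.2% to 73.5% in SDLN and 0.877% to 7.96% in skin. On that scale Nr4a2 overlapped between tissues, at 1.10%, 1.92% and 0.344% in SDLN Tregs A to C and 0.536%, 1.36% and 0.679% in skin. Nr4a3 was lower in every skin library, at 1.21% to 1.82% in SDLN and 0.0006% to 0.114% in skin. With the T cell marker sum as library size, an alternative added after seeing the data, the log2 fold change was 3.02 for Nr4a1 (edgeR adjusted p = 0.00766, where 1.99% of genes were called higher), 6.80 for Nr4a2 (0.0043) and 1.52 for Nr4a3 (0.554). Under that scaling, the median log2 fold change of genes over the floor in all libraries was 0.922 higher.

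The make-up of the family differed between the tissues. Per kilobase of exon, Nr4a1 held 96.9%, 96.5% and 97.7% of the family sum in SDLN Tregs A to C and 65.3%, 86.5% and 86.0% in skin Tregs A to C. Nr4a2 held 1.45%, 2.18% and 0.673% in SDLN and 34.5%, 12.8% and 14.0% in skin. The shares did not overlap between tissues for either gene. The ratio of Nr4a1 to Nr4a2 within a library, per kilobase, was 66.7, 44.2 and 145 in SDLN and 1.89, 6.78 and 6.13 in skin. On the log2 scale it was 4.14 lower in skin, and a ratio within a library does not depend on scaling between libraries. The ratio of Nr4a1 to Nr4a3 was 3.34 higher in skin, and that of Nr4a2 to Nr4a3 was 7.47 higher. These 2 values depend on skin Tregs C, where Nr4a3 had 2 counts and was at the floor, and without that library they were 1.55 and 5.95. None of the 3 ratios overlapped between tissues, and each gave an exact two-sided permutation p of 0.10 (0.10 after adjustment over the 3), the smallest that 3 against 3 libraries allow. The summed level of the family was 339 to 347 CPM in SDLN Tregs and 853, 3603 and 1473 CPM in skin Tregs A to C.

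**Figure D4:**
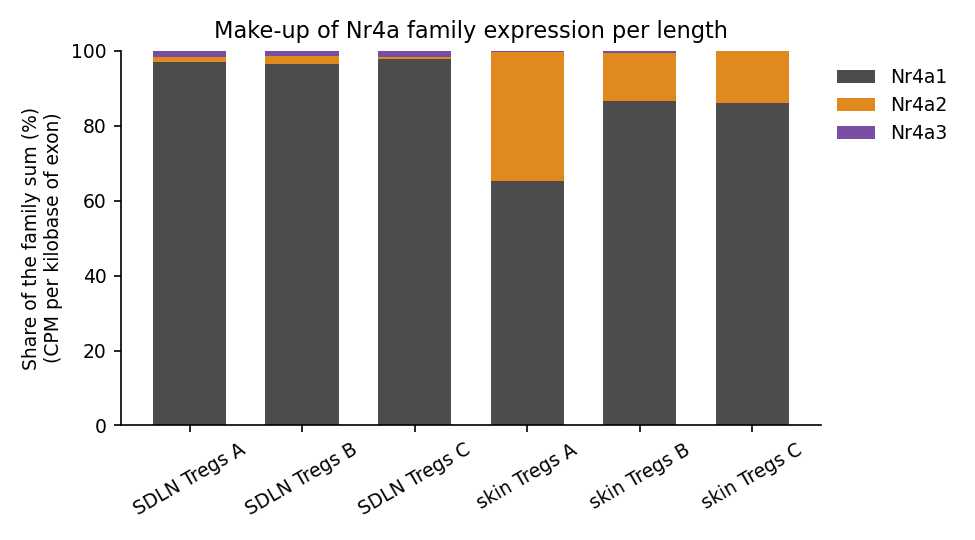
Share of each member in the family sum, in percent of CPM per kilobase of exon, for each library. Nr4a1 fills 96.5% to 97.7% of the SDLN bars, and Nr4a2 takes 12.8% to 34.5% of the skin bars.

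Among the 49 nuclear receptor genes listed here, ranked per kilobase of exon, Nr4a1 was first in all 6 libraries. It held 41.8%, 39.9% and 48.0% of the summed receptor level in SDLN Tregs A to C and 32.9%, 71.7% and 65.4% in skin Tregs A to C. Nr4a2 ranked 14, 13 and 17 in the SDLN libraries and 3, 2 and 2 in the skin libraries. Nr4a3 ranked 13, 14 and 13 in the SDLN libraries, and 6, 7 and 11 in skin, where far fewer receptors were over the floor (7, 10 and 9 of 49, against 26, 31 and 30 in SDLN). Of the other 46 receptors, 21 were tested, none was called higher in skin by edgeR and 10 were called lower, all of them at the floor in every skin library. That number lies near the 45.3% of all genes called lower. Their median log2 fold change was -1.73, beside -2.21 over all genes tested. The 3 most abundant were not called. Rora, a receptor of the ROR family, had 66.6, 101 and 67.3 CPM in SDLN and 528, 33.3 and 426 CPM in skin (log2 fold change 2.02, edgeR adjusted p = 0.24). Nr3c1, the glucocorticoid receptor, had 83.2, 75.6 and 59.3 CPM in SDLN and 2.93, 732 and 211 CPM in skin (2.24, adjusted p = 0.424). Nr1h2, the oxysterol receptor LXR beta, had 132, 118 and 157 CPM in SDLN and 387, 108 and 150 CPM in skin (0.48, adjusted p = 0.806). All 3 overlapped between tissues.

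Among the lower calls were Rxrb, Pparg, Nr2c1 and Thrb, each at 0 counts in all skin libraries. Rxrb, an RXR partner of Nr4a1 and Nr4a2, had 20.0, 15.8 and 16.7 CPM in SDLN Tregs A to C, and Pparg, a receptor of lipid metabolism, 21.1, 18.0 and 13.6 CPM. These levels lie above what 3 counts stand for in the skin libraries, but many genes had no counts there. Of the genes listed, 4006, 7953 and 7614 genes were over 0 in skin Tregs A to C, against 19853 to 21806 in SDLN, and 5878 of the 13572 genes tested had at most 3 counts in each skin library. The partner Rxra had 49.6, 65.3 and 37.5 CPM in SDLN and 0, 146 and 0 CPM in skin Tregs A to C (log2 fold change 0.01, edgeR adjusted p = 0.999), so that its skin mean came from skin Tregs B alone. Rxrg was not tested, with 98, 8 and 0 counts in SDLN and 0 in skin. In skin Tregs A and C, Nr4a1 and Nr4a2 were thus counted with all 3 RXR genes at 0.

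Other immediate-early genes moved in the direction of Nr4a2. Of 17 on the list, edgeR called 10 higher in skin and 0 lower, against 1.04% of all genes called higher, and the median log2 fold change was 3.74. In 12 of the 17 every skin library lay above every SDLN library, as in 2.39% of all genes tested. Fos and Jun, which together form the AP-1 factor, are examples. Fos had 16.2, 14.8 and 8.57 CPM in SDLN Tregs A to C and 4175, 2478 and 588 CPM in skin (log2 fold change 7.31, adjusted p = 0.00322). Jun had 6.23, 6.21 and 4.66 CPM in SDLN and 3041, 441 and 109 CPM in skin (7.32, adjusted p = 0.00609). Both were highest in skin Tregs A and lowest in C, an order that neither Nr4a1 (highest in B, lowest in A) nor Nr4a2 (highest in B, lowest in C) shared. Dusp1, a phosphatase that inactivates MAP kinases, rose from 102 to 115 CPM in SDLN to 3994 to 7464 CPM in skin (5.46, adjusted p = 0.00322). Klf6, a zinc finger factor, rose by 3.74 (adjusted p = 0.00326) and Junb, another AP-1 member, by 2.55 (adjusted p = 0.00374). Zfp36, which promotes decay of cytokine mRNAs, had 87.9 to 6063 CPM in skin and 49.8 to 235 CPM in SDLN and was not called (3.83, adjusted p = 0.0638). The summed level of the list was 1948 to 2229 CPM in SDLN Tregs and 34896, 17332 and 11787 CPM in skin Tregs A to C.

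Genes induced by the TCR formed the next list, which shares Egr1 with the immediate-early genes. Of 20, edgeR called 2 higher and 2 lower in skin, where 1.04% of all genes were called higher and 45.3% lower, and their median log2 fold change was 0.34. Ifrd1, a transcriptional coregulator, had 31.3, 24.5 and 18.9 CPM in SDLN and 225, 217 and 311 CPM in skin (3.38, adjusted p = 0.0286). Ctla4, the inhibitory receptor of Tregs, had 520, 583 and 353 CPM in SDLN and 1181, 1322 and 796 CPM in skin (1.15, adjusted p = 0.0447). Other settings often kept only 1 or neither of these calls. Egr2, an early factor induced by the TCR together with the Nr4a genes, was the other gene of the list with every skin library above every SDLN library, and was named after its values were seen. It had 140, 178 and 128 CPM in SDLN and 689, 345 and 226 CPM in skin (log2 fold change 1.34, adjusted p = 0.123). Egr3, a related factor, had 335, 128 and 61 counts in SDLN and 0 in all skin libraries and was called lower, as was Spry1, an inhibitor of receptor signalling. The most abundant of the list were not called. The log2 fold change was -0.07 for Tnfrsf4 (OX40), 0.14 for Il2ra (CD25) and 0.86 for Icos, with edgeR adjusted p of 0.98, 0.91 and 0.307.

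**Figure D5:**
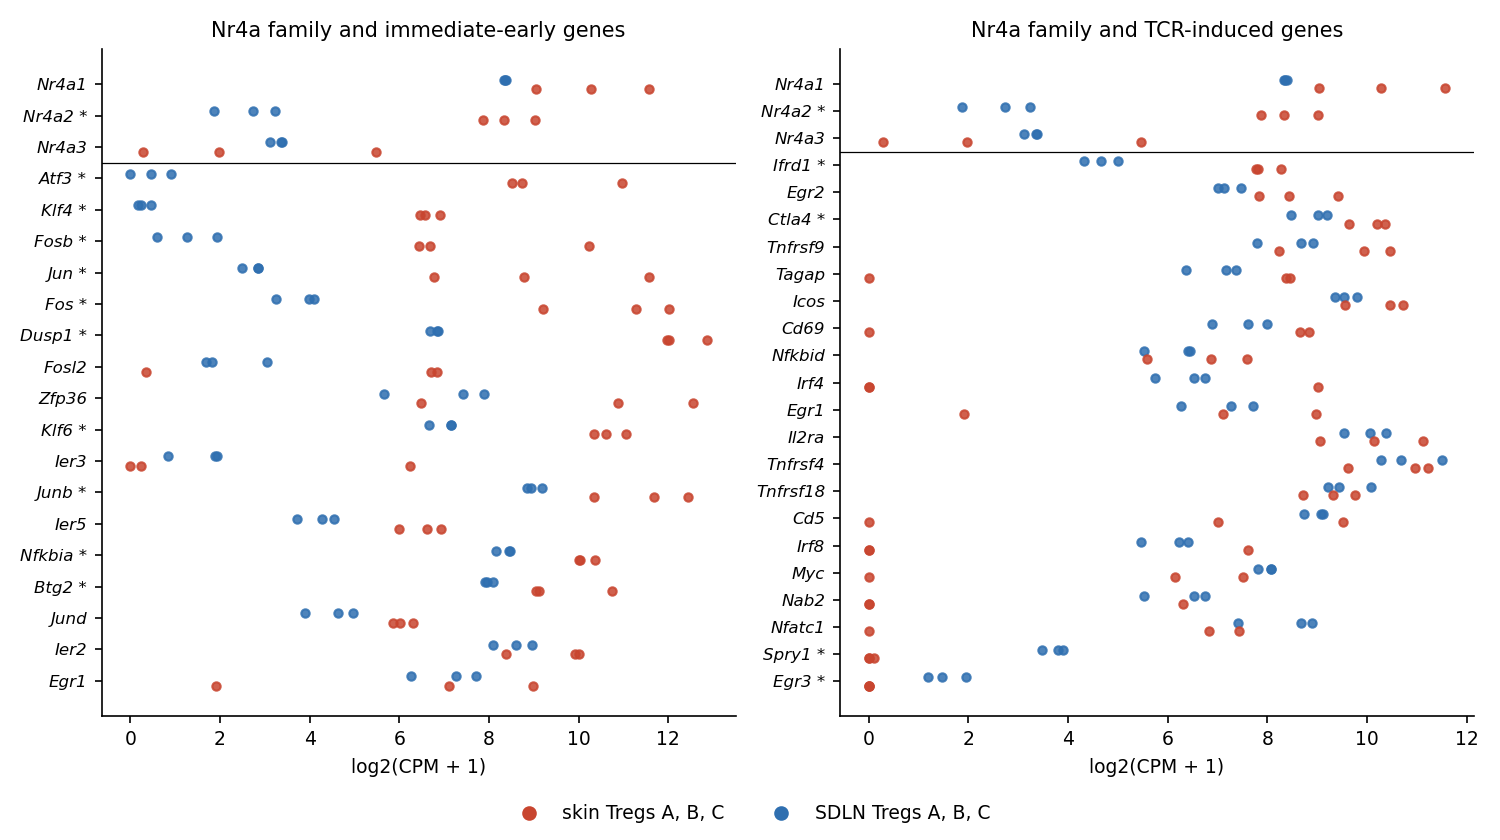
Levels as log2(CPM + 1) in each library for the Nr4a family (above the line) with the immediate-early genes (left) and the TCR-induced genes (right), skin Tregs in red and SDLN Tregs in blue, with an asterisk where edgeR made a call. Every skin library lies above every SDLN library for 12 of 17 immediate-early genes and 3 of 20 TCR-induced genes (2.39% of all genes tested), and below for 0 and 3 (53.6%).

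Upstream of the family, 18 genes were listed for the calcineurin, NFAT, MEF2, CREB and SRF routes that are known to act on Nr4a transcription, with Nfatc1 also on the TCR-induced list. None was called higher in skin by edgeR and 8 were called lower, a share close to the 45.3% of all genes. Of these, Mef2c and Mef2d (MEF2 factors), Elk1 (a partner of SRF), Ppp3cb (a catalytic subunit of calcineurin) and Rcan1 (its inhibitor and an NFAT target) were at the floor in every skin library. Rcan1 had 926, 484 and 202 counts in SDLN and 0 in skin. Crem, a CRE-binding factor, had 43.7, 48.4 and 33.5 CPM in SDLN Tregs A to C and 640, 343 and 35.5 CPM in skin, and was not called (log2 fold change 2.77, adjusted p = 0.1). Nfatc1 (-1.70, adjusted p = 0.689) and Ppp3ca, another catalytic subunit of calcineurin (1.44, adjusted p = 0.777), were both at 0 in skin Tregs A.

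Of 16 genes linked to Nr4a activity in T cells, 15 were tested, 0 were called higher and 3 lower, beside 1.04% and 45.3% of all genes. Their median log2 fold change was -1.77, beside -2.21 for all genes. The 3 were Tox2, a factor of the exhaustion programme, the chemokine receptor Ccr4 and the cytokine Il4, each at 0 counts in all skin libraries. Ikzf2, which encodes the Treg factor Helios, had 1019, 1404 and 865 CPM in SDLN and 110, 2330 and 1458 CPM in skin (0.42, edgeR adjusted p = 0.894). Tox had 567, 567 and 740 CPM in SDLN and 0.267, 755 and 919 CPM in skin (0.04, adjusted p = 0.996), and Tigit, an inhibitory receptor, 321, 349 and 474 CPM against 167, 565 and 863 CPM (0.64, adjusted p = 0.717). In all 3 skin Tregs A was the lowest library and skin Tregs B and C were above the SDLN range. Foxp3 itself, which the Nr4a factors are known to sustain, was not called (-3.23, adjusted p = 0.472), nor was Cd4 (-2.97, adjusted p = 0.523). Both rest on skin Tregs B, without which Foxp3 was called lower (-10.22, edgeR adjusted p = 0.00998), as was Cd4 (-11.51, adjusted p = 0.00725). In that fit 48.9% of all genes tested were called lower. With limma voom both were called lower as well (-7.50 for Foxp3, adjusted p = 0.0206, and -8.57 for Cd4, adjusted p = 0.0131), as were 53.0% of all genes tested.

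Genes whose level followed each member most closely were found by Pearson correlation of log2(CPM + 1) over the 6 libraries, among 8163 candidates with a mean of at least 10 CPM. With 6 libraries of 2 tissues a high r can come from the difference between tissues alone, and it is given as a description. Nr4a2 was most like Il10, the anti-inflammatory cytokine of Tregs and macrophages (r = 0.997), which had 18.3, 23.5 and 10.7 CPM in SDLN and 280, 303 and 163 CPM in skin (log2 fold change 3.79, edgeR adjusted p = 0.0221). Next came Anxa1, Higd2a, C1qb and Spag9, of which C1qb is also on the macrophage marker list. Nr4a1 was most like Glrx, a glutaredoxin (r = 0.972), with 136, 145 and 132 CPM in SDLN and 188, 286 and 231 CPM in skin, followed by Kdm2a, Lrrfip1, Gpr132 and Man1a. Nr4a3 was most like Crk, a signalling adaptor (r = 0.994), with 17.2, 17.6 and 16.7 CPM in SDLN and 6.14, 187 and 0.221 CPM in skin, followed by Oxnad1, Tmf1, Tmem38b and Serf1. All 5 genes were highest in skin Tregs B, as Nr4a3 was. Between members, r was 0.826 for Nr4a1 and Nr4a2, 0.213 for Nr4a1 and Nr4a3, and -0.119 for Nr4a2 and Nr4a3.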

How the data were processed

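Bulk RNA-seq was performed on 3 skin Treg and 3 SDLN Treg samples of 1 labelled batch. The authors trimmed reads with Trimmomatic 0.36, mapped them to GRCm38 with STAR 2.5.2b and deposited raw counts per Ensembl gene from featureCounts (Subread 1.5.2). The annotation release, strand setting and duplicate handling are not given in the sources used here. The tissue field reads skin for all samples, so groups came from titles. Column letters cannot be linked to the numbered titles. The methods describe pools of 3 biological replicates, 3 samples in total, without saying which pools of both tissues shared mice. P-values measure the spread between these pools.

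Symbols and exon lengths came from GENCODE M21 and promoters from RefSeq. CPM are relative to library totals. Counts were tested with edgeR 4.0.16 in R 4.3.3 (filterByExpr, TMM, robust quasi-likelihood F test, tissue as the only term, Benjamini-Hochberg over 13572 genes), with SE derived from F. The common dispersion was 2.04. The test was checked on simulated counts. Alternatives were other normalizations, DESeq2 1.42.0, limma 3.58.1 voom with quality weights, other filters, down-sampling to the smallest total, leaving out each library and a block by column letter. Members and gene lists were chosen with earlier results of these data known. Named genes were the members, RXR and sort genes, up to 5 called per direction and the 3 most abundant in each list, and the 5 most correlated with each member. A gene that this rule names is not reported here. No gene-set test was run.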

Additional observations from a re-analysis of the deposited data

How the results depend on the processing

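Nr4a2 was called higher in skin under every alternative except a fit blocked by column letter (values at the end), which also called Nr4a1, and Nr4a1 kept its direction in all of them. The log2 fold change of Nr4a1 was past the threshold with DESeq2 size factors in edgeR (2.38, adjusted p = 0.0328), library size only (2.29, adjusted p = 0.0326), DESeq2 (2.38, adjusted p = 0.000827), limma voom (2.05, adjusted p = 0.0327) and T cell marker library sizes (3.02, adjusted p = 0.00766, chosen after seeing the data). Leaving out 1 library gave 1.54 to 2.68, and the call was made without skin Tregs A. Over the 16 alternatives other than the T cell marker library sizes and the block by letter its adjusted p ran from 0.000827 to 0.156. Nr4a3 reversed with limma voom (-2.20, adjusted p = 0.232) and ranged from -2.99 to 1.31 when 1 library was left out, with the lowest value without skin Tregs B. It could not be tested under the minimum of 10 counts in every library. The ratios between members kept their direction in every alternative. For genes over the floor in all 6 libraries, the upper quartile shifted the median log2 fold change by 6.54, TMMwsp by -0.12 and limma voom by -0.21.

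The counts of called genes moved as follows. Of all genes tested, 45.3% were called lower in the main comparison, 53.0% with limma voom, 25.6% without a filter (of 24914 genes), 0.645% under the minimum of 10 counts (of 1396), 38.2% after down-sampling, 42.5% without skin Tregs A, 48.9% without skin Tregs B and 40.1% to 41.0% without 1 SDLN library. Higher calls took 1.04%, then 0.958% with TMMwsp, 1.24% with the upper quartile and after down-sampling, 0.936% with limma voom, 0.309% without a filter, 5.80% under the minimum of 10 counts, 1.03% in the non-robust fit, 2.98% with DESeq2, 2.04% without skin Tregs A, 1.21% without skin Tregs B or C and 0.564% to 0.640% without 1 SDLN library. Among other nuclear receptors, lower calls went from 10 to 0 under the 10-count minimum per library and to 5 after down-sampling, and higher calls ranged from 0 to 1 when 1 library was left out (1 without skin Tregs A or B). Higher calls among TCR-induced genes went from 2 to 1 with TMMwsp, limma voom, the minimum of 10 counts, down-sampling and the non-robust fit, to 0 with the upper quartile and without a filter, and ranged from 0 to 2 when 1 library was left out (0 without any SDLN library, 1 without skin Tregs B or C). Their lower calls went from 2 to 5 with limma voom, 0 with the minimum of 10 counts and 1 after down-sampling, and ranged from 2 to 4 when 1 library was left out (4 without skin Tregs A). Immediate-early lower calls ranged from 0 to 1 in the same fits (1 without skin Tregs A). Among inputs to Nr4a transcription, DESeq2 called 1 higher, leaving out 1 library gave 0 to 2 higher (2 without skin Tregs A, 1 without skin Tregs C) and 5 to 10 lower (5 without any SDLN library), and the minimum of 10 counts gave 0 lower. Among genes linked to Nr4a, lower calls went from 3 to 7 with limma voom and 0 with the minimum of 10 counts, and ranged from 2 to 7 when 1 library was left out (7 without skin Tregs B). The minimum of 10 counts removes genes at 0 in a skin library by its construction, and the cause of the other moves was not tested.

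Of 39 other named genes, 30 kept their direction in every alternative that gave a value. With limma voom the log2 fold change reversed to -0.21 for Ikzf2, -0.15 for Il2ra, -1.56 for Ppp3ca, -6.97 for Rxra, 0.16 for Tnfrsf4 and -2.19 for Tox. With the upper quartile it reversed to 5.50 for Ptprc and 5.15 for Tnfrsf4. Il2ra was -0.027 under the minimum of 10 counts. Rxra was -0.02 with DESeq2 size factors and with DESeq2, -0.096 with TMMwsp, -0.056 with library size only, -0.042 without a filter and -0.077 after down-sampling, and Tox was -0.095 with TMMwsp, -0.16 with library size only, -0.016 without a filter and -0.15 after down-sampling. Leaving out 1 library gave -0.19 to 0.78 for Ikzf2, -0.35 to 0.34 for Il2ra, -0.059 to 0.73 for Nr1h2, -0.78 to 0.12 for Ptprc, -14.30 to 0.46 for Rxra, -0.22 to 0.93 for Tigit, -0.65 to 0.26 for Tnfrsf4 and -0.78 to 0.44 for Tox.

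No source says that a column letter shared by both tissues marks shared mice. Deviations from the group means over 13572 genes had r of 0.020, -0.021 and 0.075 for the same-letter libraries A, B and C. Not every library was most like its own letter. With 3 libraries per tissue, such values cannot show whether mice were shared, so pairing was not decided from them. A replicate block by letter, fitted after seeing the data, gave log2 fold changes of 1.92 for Nr4a1 (edgeR adjusted p = 0.00564), 6.04 for Nr4a2 (0.147) and -1.84 for Nr4a3 (0.748), and called 61 genes higher and 5633 lower where the fit without it called 141 and 6142. Depth limits the skin libraries most, where 3 counts stand for 0.255 to 0.800 CPM.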

Other observations

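Several receptors and TCR-induced factors were counted in 1 skin library and not in the others, which shows how far the 3 skin libraries differ from each other beside the spread of Nr4a3. These genes were chosen after their values were seen, and the groups overlap for each. Nr1d2, a receptor of the circadian clock, had 258 CPM in skin Tregs B and 0 in skin Tregs A and C, with 13.3 to 24.6 CPM in SDLN Tregs. Rarg, a retinoic acid receptor, had 50.5 CPM in skin Tregs C and 0 in skin Tregs A and B, with 12.2 to 82.0 CPM in SDLN Tregs. Irf4, a factor induced by the TCR in proportion to signal strength, had 515 CPM in skin Tregs A and 0 in skin Tregs B and C, with 52.4 to 107 CPM in SDLN Tregs.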
